A study of Mus musculus with 6 samples.

Results

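Klf3, Klf6, Klf7, Klf9, Klf10, Klf13, Klf15, Egr1 and Egr2 encode zinc finger transcription factors. Regions called for GATA4 and GATA6 at these 9 genes were examined in mouse extra-embryonic endoderm (XEN) cells. The genes were chosen by name, 9 of 21938 protein-coding genes of the GENCODE annotation, as family members that are not core pluripotency factors. The study itself counts Klf9 among pluripotency regulators and lists Egr1 among genes activated early with Oct4. The choice was made with earlier results of these data known, and further KLF and EGR genes were left out. Shares of the 9 genes therefore do not stand for the families. At each of them, called regions were taken that lay in the gene body or within 50 kb of a transcription start site (TSS). CUT&RUN, in which an antibody tethers a nuclease that releases the DNA around a bound protein, had been run with an antibody to GATA4 or to GATA6. There were 3 libraries per factor, 6 in all, and no other condition. All 6 came from XEN line 3F2, derived from blastocysts that carry a doxycycline-inducible cassette of Oct4, Klf4, Sox2 and mCherry, the transactivator Rosa26-M2rtTA and an Oct4-GFP reporter, and they represent starting cells before reprogramming. The line is thus 1 isolate, and the study's methods name a further line, 3F6, and fewer replicates than the labels, which were followed here. Nothing in the labels says whether the replicates were separate cultures, so the p-values measure the spread between libraries, which may be technical. The files hold called regions and no expression, so the cell type was not checked against marker genes. A region near a gene says nothing of that gene's activity. The study's methods name an IgG control antibody, but the 6 libraries hold no IgG sample and regions were called at a numeric threshold. Whether a call exceeds background was not tested, so a called region is not shown to be bound.

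Krüppel-like factors (KLFs) bind GC-rich and CACCC sequences through zinc fingers at their C terminus, and individual members act as activators or repressors. EGR factors bind a related GC-rich site through the same kind of finger and are immediate early genes, switched on within minutes by serum and growth factors through the MAP kinase pathway and serum response factor. GATA4 and GATA6 are the zinc finger factors that define the primitive endoderm and recognise a hexamer called WGATAR, where W stands for A or T and R for A or G.

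The 6 lists held 42446 to 49597 regions each, and the median region had a maximum signal of 4 stacked fragments in every list. The labels state 30000000 reads per library, but how many were left after filtering is unknown, so a region missing from a list cannot be told apart from one missed at that depth. The windows of the 9 genes spanned 101 to 143 kb, and 104 kb was the median over all protein-coding genes. Merged over the 6 libraries, 110 regions lay at the 9 genes. Most were seen once, as 81 of them (73.6%) were called in 1 library, 17 in 2 or 3, 4 in 4 or 5, and 8 (7.27%) in all 6. Over the 201994 merged regions of the whole genome, 83.2% were called in 1 library and 1.88% in all 6, and among regions at any protein-coding gene, selected with the same windows, 80.1% and 2.48%.

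The authors' combined lists keep only regions present in all 3 libraries of a factor. A GATA4 combined region was present at 7 of the 9 genes (Klf3, Klf6, Klf7, Klf9, Klf10, Klf13 and Egr2), and 48.2% of all protein-coding genes had one. A GATA6 combined region was present at 5 (Klf3, Klf6, Klf9, Klf10 and Klf13), against 38.3% of all genes, and the same 5 genes had a region in both lists, against 33.8%. Klf15 and Egr1 had none in either list. In all, 14 GATA4 and 8 GATA6 combined regions lay at the 9 genes. The 8 GATA6 regions each overlapped a GATA4 region, as did 72.3% of the whole GATA6 list. Of the 14 GATA4 regions, 9 (64.3%) overlapped a GATA6 region, compared with 45.2% of the longer GATA4 list, and the other 5 lay at Klf3, Klf6, Klf7, Klf9 and Egr2. These shares were not tested.

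Called regions also lay at the genes' own promoters. A GATA4 combined region lay within 1 kb of a TSS at 6 genes (Klf3, Klf6, Klf7, Klf9, Klf10 and Klf13; 19.8% of all genes) and a GATA6 combined region at 4 (Klf3, Klf9, Klf10 and Klf13; 13.8%). At those same 4 genes the promoter region was called in all 6 libraries, which held for 10.8% of all genes. Counting every region in 4 or more libraries or in a combined list gave 13 recurrent regions, 7 of them within 1 kb of a TSS of the gene and 6 farther away. Of the 13, 12 had the gene itself as the nearest protein-coding gene, and 11 had their midpoint upstream of the gene's nearest TSS. Their maximum signal ran from 3 to 12 stacked fragments with a median of 7 over 70 calls, compared with 2 to 6 and a median of 3 for the 81 regions of 1 library. Recurrence and signal come from the same calls, so this comparison is a description.

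**Figure D1:**
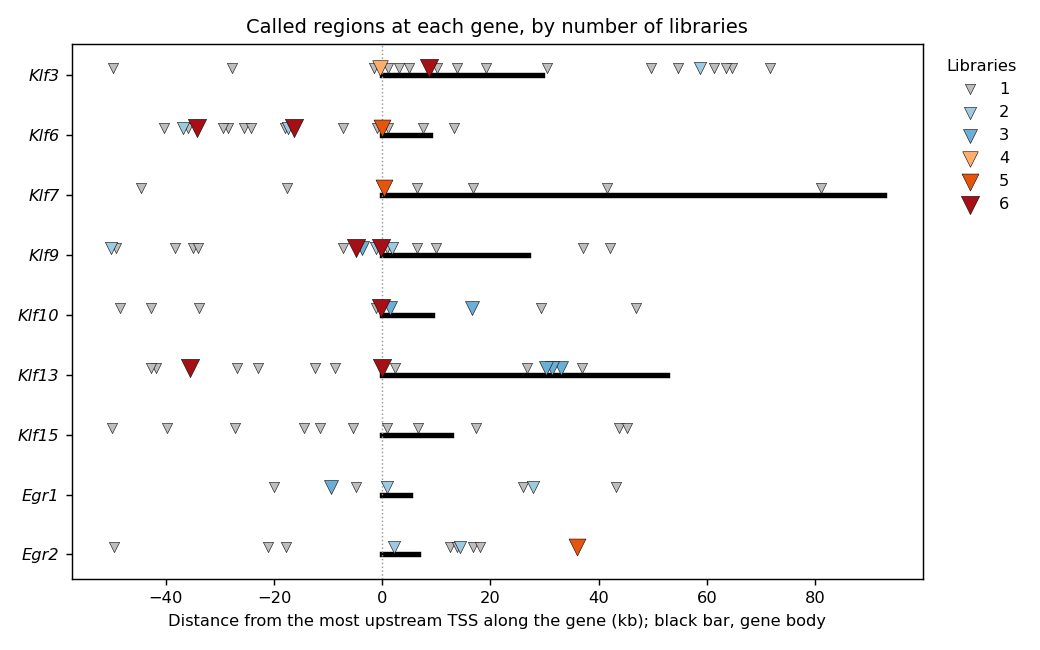
Merged called regions at the 9 genes (rows), placed by the distance of their midpoint in kb from the most upstream TSS, with the direction of transcription to the right. Black bars are gene bodies and triangles are regions, larger and redder with the number of libraries (1 to 6) that called them. The 8 regions of all 6 libraries lie at Klf3, Klf6, Klf9, Klf10 and Klf13, and the map of Klf15 holds only regions of 1 library.

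Klf6 (chromosome 13, 5861482 to 5870394, plus strand), a widely expressed KLF induced by injury and serum, had 4 GATA4 and 2 GATA6 combined regions. Of the 4, 2 were parts of a single merged region, and counted as merged regions Klf6 had 3, equal to Klf9. Both GATA6 regions were intergenic and upstream of the gene. The first lay at chr13:5826094-5828182 when merged over the libraries, 34.3 kb upstream of the Klf6 TSS, and was called in all 6. Its maximum signal was 10, 11 and 8 in GATA4 replicates 1, 2 and 3 and 5, 9 and 9 in GATA6 replicates 1, 2 and 3. In terms of total signal, the fragment pileup summed over a region, its strongest part stood at the 97.0, 89.3 and 95.8 percentile of the GATA4 lists and at the 92.4, 75.2 and 89.2 percentile of the GATA6 lists. All 6 libraries thus placed this region at or above the 75.2 percentile of their own list. The GATA4 combined list split it into 5826094 to 5827021 and 5827254 to 5828182, and the libraries differed in which part held the maximum, with 1163 bp between the outermost maxima.

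The second distal region, chr13:5844459-5845841, lay 16.3 kb upstream of Klf6 and was also called in all 6 libraries. Its percentile was 97.5, 96.6 and 98.7 in the GATA4 replicates and 93.7, 84.6 and 48.5 in the GATA6 replicates, so 1 GATA6 library ranked it near the middle of its list. The GATA4 libraries had maximum signals of 8, 8 and 11 there and the GATA6 libraries of 8, 6 and 7. At the promoter itself a region from 5861097 to 5861639, 114 bp from the TSS, was called in 5 libraries and missed in GATA6 replicate 2, so that it entered the GATA4 combined list and not the GATA6 list. Its percentile ranged from 35.7 to 87.5. The nearest TSS to both distal regions was that of a long non-coding gene, 1700016G22Rik, at 30423 and 12411 bp.

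Reference sequence at the centre of the Klf6 distal regions is shown, and not the DNA that the antibodies recovered. The maxima of the libraries spread over 1163 bp in the first region and 365 bp in the second. The 200 bases therefore do not hold the maximum of every library. In the following runs of 200 bases, taken from the plus strand of GRCm38 (mm10) around the median position of maximum signal over the libraries, capitals mark WGATAR, spelled AGATAA and AGATAG as well as TGATAA and TGATAG, on either strand. The first, chr13:5826272-5826471, holds 2 matches, and the second, chr13:5845054-5845253, holds 1 match near its end.
Klf6, 34.3 kb upstream: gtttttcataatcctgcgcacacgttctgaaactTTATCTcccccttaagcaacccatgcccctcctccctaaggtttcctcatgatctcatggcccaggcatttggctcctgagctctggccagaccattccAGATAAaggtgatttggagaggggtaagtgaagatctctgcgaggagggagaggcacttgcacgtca
Klf6, 16.3 kb upstream: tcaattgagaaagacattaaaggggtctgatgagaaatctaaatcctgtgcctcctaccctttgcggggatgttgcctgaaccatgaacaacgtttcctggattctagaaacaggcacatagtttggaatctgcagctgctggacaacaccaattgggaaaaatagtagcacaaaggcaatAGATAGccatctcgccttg

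Klf13 (chromosome 7, 63886351 to 63938915, minus strand), a KLF that represses through the Sin3A complex and has roles in heart and lymphocytes, had 2 regions in each combined list, each called in all 6 libraries. The promoter region, chr7:63938694-63939417, had its midpoint 141 bp upstream of a TSS. Its maximum signal was 5, 8 and 6 in the GATA4 replicates and 6, 6 and 7 in the GATA6 replicates, and its percentile 87.2, 93.4 and 14.6 and then 93.4, 94.0 and 81.2. The low value of GATA4 replicate 3 was the exception among the 6. The distal region lay 35.5 kb upstream in intergenic sequence, with Klf13 the nearest protein-coding gene and the long non-coding gene Gm45052 nearer, at 12223 bp. Its percentile was 96.6, 82.2 and 97.5 in the GATA4 lists and 95.1, 79.3 and 84.6 in the GATA6 lists, and its maximum signal 7, 12 and 9 and then 7, 10 and 6. It thus ranked in the top part of every list. The 6 libraries placed the maximum within 75 bp of each other. Of all 3793 regions called in all 6 libraries, 29.9% had their maxima at most that far apart, and the median was 128 bp.

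Inside the gene, 3 neighbouring intronic regions of Klf13 between 63905560 and 63909022 were each called in 2 GATA4 libraries and 1 GATA6 library, in a different combination each time. The protein-coding gene E030018B13Rik was the nearest to all 3, at 8248 to 10922 bp. None entered a combined list.

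The Klf13 promoter is shown as the sequence under a region of all 6 libraries that holds no WGATAR. It is the RefSeq sequence of the 250 bases before the gene's start, GRCm38.p6, chr7:63938916-63939165 on the minus strand, and lies inside the promoter region. Capitals mark the GC box GGGCGG and the KLF element CACCC on either strand, which overlap at 1 place.
Klf13, promoter: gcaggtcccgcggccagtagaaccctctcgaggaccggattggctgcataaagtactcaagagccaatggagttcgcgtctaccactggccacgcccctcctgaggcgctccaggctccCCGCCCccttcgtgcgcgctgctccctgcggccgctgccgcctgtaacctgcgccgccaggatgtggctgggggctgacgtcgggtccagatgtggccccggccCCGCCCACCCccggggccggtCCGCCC

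Klf9 (chromosome 19, 23141226 to 23168134, plus strand), which glucocorticoid and thyroid hormone induce, had 3 GATA4 and 2 GATA6 combined regions, all at or upstream of its start. The promoter region, chr19:23140423-23141382, was called in all 6 libraries at the 98.2, 62.3 and 93.6 percentile for GATA4 and the 88.6, 96.6 and 63.9 percentile for GATA6. A second region of all 6 libraries, chr19:23135811-23136897, lay 4.9 kb upstream of Klf9 and 1454 bp from the TSS of the long non-coding gene 2410080I02Rik. Its percentile was 76.8, 86.3 and 91.6 in the GATA4 lists and 10.2, 36.6 and 81.6 in the GATA6 lists, so 2 GATA6 libraries held it among their weaker regions. Signal is not scaled for depth, and percentiles were not tested between factors. Between these regions lay one, chr19:23137112-23137855 and 3.7 kb upstream (2584 bp from 2410080I02Rik), that was called in all 3 GATA4 libraries and in no GATA6 library. Its maximum signal was 5, 4 and 6, its percentile 94.3, 78.3 and 70.2, and the 3 maxima fell within 36 bp. This held for 16.1% of the 5671 regions called in 3 libraries, and the median was 141 bp. Chromosome 19 was densely called on average, with 16.4 merged regions per 100 kb compared with 15.6 at Klf9, and the part of this density in the Klf9 calls was not tested.

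Both upstream regions of Klf9 are shown as 200 bases of the plus strand around the maximum, chr19:23136482-23136681 and chr19:23137282-23137481, with WGATAR in capitals, followed by the RefSeq promoter, chr19:23140976-23141225, with CACCC in capitals. The region of all 6 libraries holds no WGATAR, and the region called in GATA4 libraries holds 2 matches.
Klf9, 4.9 kb upstream: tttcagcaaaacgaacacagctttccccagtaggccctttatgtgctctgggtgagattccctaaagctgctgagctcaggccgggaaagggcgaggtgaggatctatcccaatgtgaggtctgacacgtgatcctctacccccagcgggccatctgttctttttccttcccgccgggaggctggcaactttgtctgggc
Klf9, 3.7 kb upstream: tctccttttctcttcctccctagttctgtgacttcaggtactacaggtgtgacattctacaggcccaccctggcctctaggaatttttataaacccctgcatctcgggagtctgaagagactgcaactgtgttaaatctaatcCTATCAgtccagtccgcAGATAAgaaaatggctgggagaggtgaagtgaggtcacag
Klf9, promoter: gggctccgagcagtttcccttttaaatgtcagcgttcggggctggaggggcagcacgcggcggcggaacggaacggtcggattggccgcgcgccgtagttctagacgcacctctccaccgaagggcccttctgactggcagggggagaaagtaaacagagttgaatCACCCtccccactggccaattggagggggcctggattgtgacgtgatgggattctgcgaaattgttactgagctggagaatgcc

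**Figure D2:**
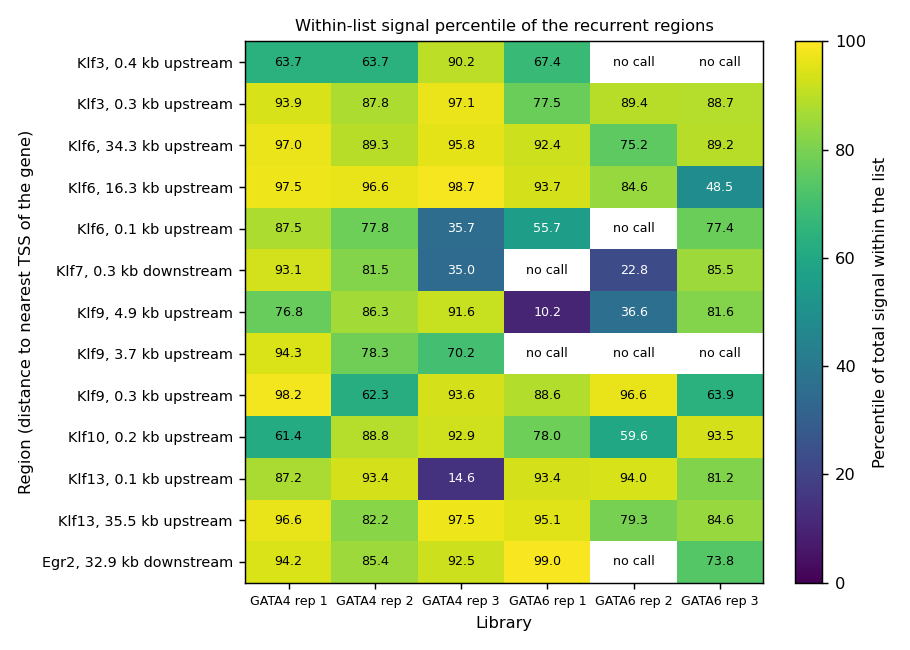
Percentile of total signal within its own list (colour, 0 to 100, value printed) for the 13 recurrent regions (rows, with distance to the nearest TSS of the gene) in each of the 6 libraries (columns); white cells are libraries without a call. The distal regions of Klf6 and Klf13 and the internal Klf3 region are above 75 in every library, with an exception. That is GATA6 replicate 3 at the second distal Klf6 region (48.5).

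Klf3, Klf7 and Klf10 were marked at promoters and not by recurrent distal regions. Klf3 (chromosome 5, 64803388 to 64832901, plus strand) encodes a repressor that recruits the co-repressor CtBP. Its region at the start of the gene, chr5:64802513-64803369, was called in the 3 GATA4 libraries and in GATA6 replicate 1, at percentiles of 63.7, 63.7, 90.2 and 67.4. A stronger region, chr5:64811425-64812566, lay 8.6 kb inside the gene, 343 bp upstream of an internal TSS, and was called in all 6 libraries. Its percentile was 93.9, 87.8 and 97.1 for GATA4 and 77.5, 89.4 and 88.7 for GATA6.

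Klf7 (chromosome 1, 64029447 to 64122282, minus strand), a KLF of the nervous system, had a single recurrent region, chr1:64121524-64122439, 300 bp downstream of a TSS. It was called in all 3 GATA4 libraries and in GATA6 replicates 2 and 3, with maxima of 7, 5, 6, 5 and 10. Although the gene is the longest of the 9, at 92.8 kb, its window held 4.9 merged regions per 100 kb, below the 7.69 of its chromosome. Each of the other 6 regions there was called in 1 library.

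Klf10 (chromosome 15, 38291463 to 38300706, minus strand), the TGF-beta-inducible early gene TIEG1, had 1 region in each combined list. It lay at its promoter, chr15:38300516-38301259, and was called in all 6 libraries. Its percentile was 61.4, 88.8 and 92.9 in the GATA4 lists and 78.0, 59.6 and 93.5 in the GATA6 lists. Maximum signals were 8, 4 and 8 (GATA4) and 6, 6 and 7 (GATA6), and the factors overlapped on both scales.

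Egr2 (chromosome 10, 67535475 to 67542188, plus strand), known as Krox20 for its part in hindbrain segmentation and myelination, had 1 GATA4 combined region and no GATA6 combined region. The region lay 32.9 kb downstream of the nearest Egr2 TSS. It was nearer to Ado, at 22639 bp, and lay 365 bp from the TSS of the long non-coding gene 4930563J15Rik, so its assignment to Egr2 rests on distance alone. It was called in all 3 GATA4 libraries at percentiles of 94.2, 85.4 and 92.5 and in GATA6 replicates 1 and 3 at 99.0 and 73.8. GATA6 replicate 2 had no called region at all within the Egr2 window. At the Egr2 gene itself, a region from 67537255 to 67538058 was called in 2 GATA4 libraries and in no GATA6 library.

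Klf15, a KLF of liver and muscle metabolism, had no recurrent region of either factor. Its locus (chromosome 6, 90462576 to 90475238, plus strand) held 11 merged regions, each called in 1 library, and 10.5 per 100 kb compared with 5.88 over its chromosome. Its region of highest percentile, 90479646 to 90480293, reached 73.4 in GATA6 replicate 1 and was nearer to Aldh1l1. The only region within 1 kb of a Klf15 TSS stood at the 0.9 percentile of GATA4 replicate 2. No pair of libraries thus shared a call at Klf15. Here and at the other genes, the chromosome value covers the whole length of the chromosome and not gene windows alone.

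Egr1 (chromosome 18, 34859823 to 34864984, plus strand), the prototype immediate early zinc finger gene, likewise had no combined region. Its window held 7 merged regions, 6.9 per 100 kb compared with 6.13 over the chromosome. The best supported, from 34850009 to 34850562 and 9.5 kb upstream, was called in GATA4 replicates 1 and 3 and GATA6 replicate 1, with maxima of 7, 7 and 9 and percentiles of 65.6, 20.6 and 89.0. These 3 maxima lay within 12 bp of each other, which held for 4.34% of the 5671 regions called in 3 libraries, against a median of 141 bp. The region was named by rule, as the best supported at a gene without a recurrent one. The spread of its maxima, however, was singled out after it had been seen. At the promoter a region from 34860135 to 34861216 was called in GATA4 replicate 2 and GATA6 replicate 3, neither of which called the region 9.5 kb upstream.

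The factors were next compared by the number of regions that each library called at the 9 genes. The GATA4 libraries held 34, 37 and 34 and the GATA6 libraries 33, 30 and 34, means of 35 ± 1.73 and 32.3 ± 2.08 (SD, n = 3). The groups overlapped, and the difference of 2.67 regions did not pass a two-sided exact permutation test over libraries (p = 0.3, where 0.1 is the smallest p that 3 against 3 libraries allow). Scaled to the length of each list, the means were equal to 3 digits, at 0.727 ± 0.0579 and 0.727 ± 0.0318 per 1000 called regions (exact permutation p = 1). In length covered, the lists held 17.8 ± 2.05 kb for GATA4 and 15.8 ± 2.89 kb for GATA6 at these genes (exact permutation p = 0.4).

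Gene by gene, the libraries of the factors separated at Klf6 alone. There the GATA4 libraries called 7, 9 and 8 regions and the GATA6 libraries 5, 5 and 6, means of 8 ± 1 and 5.33 ± 0.577 (exact permutation p = 0.1, adjusted over the 9 genes 0.9). Over all protein-coding genes, 5.36% had more regions in every GATA4 library than in any GATA6 library and 1.49% the reverse. Among the 9 genes 1 and 0 did, so no more is read from Klf6 than its counts. At Klf9 the GATA4 libraries called 6, 7 and 4 regions and the GATA6 libraries 5, 7 and 5, with the same mean of 5.67. Klf15 had 1, 1 and 1 for GATA4 and 4, 3 and 1 for GATA6, the largest difference towards GATA6, at -1.67 regions, and the groups overlapped (exact permutation p = 0.4). Egr1 counts were 3, 1 and 2 in the GATA4 libraries and 2, 1 and 2 in the GATA6 libraries. Those of Egr2 ranged from 0 to 5 within GATA6 (5, 0 and 3) and were 2, 2 and 4 for GATA4. By mean GATA4 count the order was Klf6, Klf9, Klf13 and Klf3 (equal), Klf10 and Egr2 (equal), Klf7, Egr1 and Klf15. Neighbours in this order overlapped in their library counts, except that Klf13 (5 to 6) lay above Klf10 (1 to 4) and Egr2 (2 to 4).

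**Figure D3:**
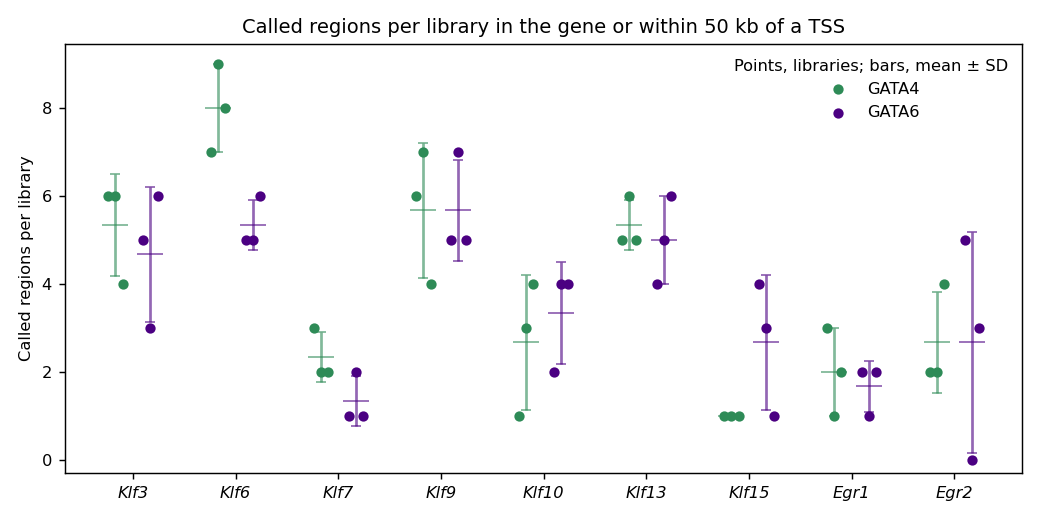
Called regions per library (y axis, count) in the gene or within 50 kb of a TSS for each of the 9 genes (x axis). Points are the 3 GATA4 and 3 GATA6 libraries, and bars are the mean ± SD (n = 3). The points of the factors are apart at Klf6 (7 to 9 against 5 to 6) and overlap at the other genes.

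The recurrent regions at promoters were GC-rich and mostly lacked WGATAR, and most of those farther away held it. Of the 7 recurrent regions at the genes' own TSSs, 6 held no WGATAR along their whole length, and the exception was the internal Klf3 region, with 2. Their GC content was 54.2% to 72.2%, with a median of 66.4%. Among all 5286 promoter regions called in 4 or more libraries, 54.5% held at least 1 match and the median GC content was 57.6%, and pooled over length there were 0.34 matches per kb in the 7 regions and 1.22 per kb in all. Those 5286 lie at a TSS of any protein-coding or long non-coding gene, which also holds for the recurrent Egr2 region. With that region added, 2 of 8 held a match (25%), at 1.53 per kb pooled. The share thus stayed lower than in all, and the pooled density did not. The part of base composition in these values was not tested.

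Away from the genes' TSSs, WGATAR was found in 5 of the 6 recurrent regions. The region 34.3 kb upstream of Klf6 held 10 matches in 2089 bp, the Egr2 region 9 in 1306 bp, and the GATA4 region 3.7 kb upstream of Klf9 held 3 in 744 bp. These densities were 4.79, 6.89 and 4.03 per kb, and the median was 2.95 per kb over 5232 distal regions called in 4 or more libraries, of which 88.3% held a match. The Egr2 region, at a non-coding TSS, and the Klf9 region, in 3 libraries, were not among those 5232. Of the 4 regions that were, 3 held a match (75%), with a median of 1.76 per kb. Pooled over length they held 2.53 per kb, compared with 3.18 over the 5232, so all 3 values lay below those of the distal regions as a whole. The distal Klf13 region and the second Klf6 region each held 2, at 2.06 and 1.45 per kb, and the region 4.9 kb upstream of Klf9, at a GC content of 58.0%, held none.

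In the combined lists, with the search limited to 200 bp around the midpoint, 5 of 14 GATA4 regions at the 9 genes held WGATAR (35.7%, exact 95% binomial interval 12.8 to 64.9) compared with 39.7% of the whole list. For GATA6 it was 2 of 8 (25.0%, 3.19 to 65.1) compared with 33.0%. The intervals cover counting error over regions alone and include the value of the whole list in both cases.

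**Figure D4:**
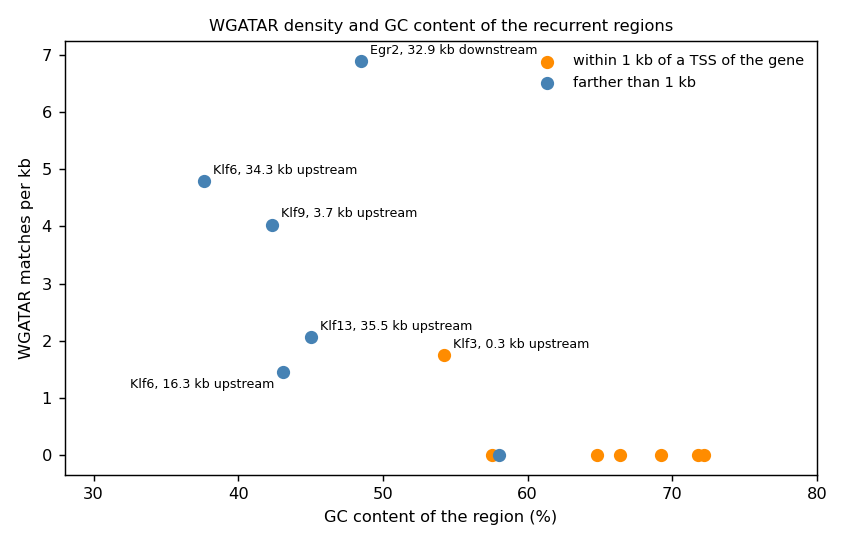
WGATAR matches per kb (y axis) against GC content in percent (x axis) for the 13 recurrent regions. Orange points lie within 1 kb of a TSS of the gene and blue points farther away; the labelled regions hold at least 1 match. The regions without a match have a GC content of 57.5% or more, and the Egr2 region has the highest density, 6.89 per kb.

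The promoters were also searched for the sites of the families themselves. RefSeq promoter entries matched 7 of the 9 genes, and the 250 bases before the start were read. No WGATAR was found in any of them, and 26.5% of the 32851 promoters of the table held one. The GC box GGGCGG was found at Klf3 (6 matches), Klf13 (3), Klf6, Klf7 and Klf15 (1 each) and, at the most upstream start, Egr2 (4), and was absent from the Klf9 window, with 32.7% of all promoters holding it. CACCC was found at Klf3 (5), Klf7 (3), Klf9, Klf13 and Klf15 (1 each) and at some of the Egr2 starts, and in 52.0% of all promoters. The EGR site GCGTGGGCG, which can share bases with the GC box, was found in none, and in 0.536% of all promoters. The CArG box, the element of serum response factor, was found at 4 of the 5 Egr2 entries, 3 of which overlap, and in 1.47% of all promoters. These are letter matches and not shown sites of binding.

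Related genes were counted by the same windows. Among 10 other KLF genes, 5 had a GATA4 and 6 a GATA6 combined region, and at Klf4, Klf5 and Klf11 regions of both lists had the gene as nearest. The nearest such GATA4 region was 15760 bp from Klf4, the KLF of the reprogramming cassette, 153 bp from Klf5 and 99 bp from Klf11, a close relative of Klf10. Of the other EGR genes, Egr3 had 2 regions in each list and Egr4 none. Among 9 SP genes, the sister family of the KLFs, 5 and 4 had a region, with Sp1, Sp2 and Sp7 nearest in both lists. Among 11 regulators and co-repressors of the families, 8 had a GATA4 and 5 a GATA6 region, and the gene was nearest in both lists at Ctbp1, Sin3a and Sin3b, whose products are co-repressors of KLF factors. Klf5 and Egr3 are on chromosome 14 and Sin3b on chromosome 8, which held 18.2 and 21 merged regions per 100 kb. Klf1, with combined regions of both factors, and Klf2, with a GATA6 combined region, are also on chromosome 8. Klf12, on chromosome 14, had none. The part of this density in the counts was not tested. Against 48.2% and 38.3% of all genes, none of these lists was tested.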

How the data were processed

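CUT&RUN was measured in 6 libraries of XEN cells, with 500000 cells and 30000000 reads per library per the labels. Per the submitters' processing notes and the methods, the authors aligned reads to mm10 with Bowtie2 2.3.4.1, filtered them with Picard, SAMtools and bedtools, and called regions per library with SEACR 1.3 in stringent mode without normalization. The deposited lists give each region's total and maximum signal, a fragment pileup not scaled for depth, which was therefore ranked within lists only. The combined lists hold positions, and regions recomputed as common to 3 libraries were identical to them (8282 of 8282 and 5170 of 5170).

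Groups came from the sample titles. Regions were merged where they overlapped or touched, and a region counted at a gene with 1 bp of overlap. In a merged region, totals were summed per library and the percentile is that of its strongest part. Features and TSSs are from GENCODE M21, protein-coding and long non-coding genes, and sequence is from GRCm38, within whose chromosome lengths all regions lay. Promoter regions have their midpoint within 1 kb of a TSS. Numbers per library were compared by exact permutation tests, and per-gene p-values were Benjamini-Hochberg adjusted. Gene counts are set beside all 21938 protein-coding genes without a test. Named regions are those in a combined list or in 4 or more libraries and, for genes without one, the best supported. The members and lists were chosen with earlier results of these data known. For libraries sharing a replicate number, correlations were 0.00102 to 0.00148. Each rests on 1 pair of libraries, and a batch shared by such libraries was not tested. As a check of the code, regions were planted at 200 of 21938 genes in simulated lists, and 200 were found. The planted regions reached the same TSS in every list and so had to be found. The check therefore says nothing of how many real regions are missed. Python 3.11.15, scipy 1.17.1, pysam 0.24.0 and samtools 1.23.1 were used. Expression data were not used here, and the sequences of 2 distal regions are not reported here.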

Additional observations from a re-analysis of the deposited data

How the results depend on the processing

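Of 93 alternative values, 87 stayed within the limits set for them and 6 moved, and no difference between the factors changed its sign. Scaled to the length of each list, however, the difference in regions was 0.000393 per 1000 called regions, so its sign means little there. The number of regions followed the width of the window and the number of libraries required. With 10 kb in place of 50 kb around a TSS, 9 GATA4 and 5 GATA6 combined regions and 5 regions of all 6 libraries remained, and with 100 kb there were 23 GATA4 combined regions. Regions called in at least 2 of 3 libraries numbered 23 for GATA4. Keeping the 21223 regions of highest total signal in each list left 5 regions of all 6 libraries. The genes with a GATA4 combined region numbered 6 to 9 and those with a GATA6 combined region 4 to 7 over all alternatives, and without the Egr2 region nearest to Ado there were 6 for GATA4.

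Leaving out 1 library gave 7 to 8 genes and 16 to 18 regions for GATA4, 5 to 6 genes and 9 to 11 regions for GATA6, 8 to 10 regions of all remaining libraries and 4 to 5 genes with such a region at a promoter. The difference in regions per library was then 1.5 (without GATA6 replicate 2) to 3.5, with 1.67 without GATA4 replicate 2, and that in covered length 785 bp (without GATA6 replicate 2) to 3592 bp (without GATA6 replicate 1), with 916 bp without GATA4 replicate 3. The difference rose to 7 regions and 4843 bp in the shortened lists (exact permutation p = 0.1 for both, the smallest possible) and to 11.7 regions and 4822 bp with 100 kb (exact permutation p = 0.1 and 0.2), and was 4.33 regions with 10 kb or with the gene required to be nearest (exact permutation p = 0.3 and 0.2). Over all alternatives the exact permutation p was 0.1 to 1, and 3 against 3 libraries cannot go below 0.1, so it says nothing of stability. The smallest possible p is higher still with a library left out or with libraries paired. With the replicate block, in which libraries of the same number were paired, the difference was 2.67 regions (exact sign-flip p = 0.5). Since reads after filtering are not known for any library, depth limits each statement that a region was not called.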
